A study of Mus musculus with 16 samples.

Results

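The antiviral interferon-inducible host genes described here are 9 genes of the mouse heart whose transcripts were found as circular RNAs: Ddx60, Zc3hav1, Eif2ak2, Oas2, Stat2, Irf2, Samhd1, Herc6 and Trim30a. They were picked by name, with earlier results of the same data known, and every circRNA that the count table assigns to one of those symbols was taken. This gave 105 of the table's 68854 circRNAs, and 9 of its 8610 host genes with a symbol. Of the 105 circRNAs, 72 had a count in at least 1 library. A circRNA forms when the end of an exon is joined back to the start of the same or an earlier exon, and reads across that back-splice junction were counted. Because the choice of genes followed from the same libraries, the differences between groups given for these 9 genes are descriptions: no p-value of a member is given, and where members were past a threshold they are only counted, beside the share of all genes that were.

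Interferons are secreted when a cell senses viral or misplaced nucleic acid. Binding to their receptor activates transcription factors, Stat2 among them, that bind the interferon-stimulated response element in the promoters of antiviral genes. The products sense foreign RNA, block translation, degrade RNA, limit nucleotide supply or tag proteins with the ubiquitin-like modifier Isg15. In the injured heart, macrophages and other cells that take up debris are known sources of interferon signalling.

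The hearts came from male C57BL/6 mice, and the design names 4 groups of 8, or 32 mice in all. In the MIRI+AICAR, MIRI+Compound C and MIRI groups the left anterior descending coronary artery was tied for 30 min and then released, which is myocardial ischaemia-reperfusion injury (MIRI), and hearts were taken after 1 week. AICAR activates the energy-sensing kinase AMPK and Compound C inhibits it, although each also acts on other targets. The Sham group had no ligation. Neither the dose, route and timing of the agents nor the age of the mice is given in the sources used here, and no vehicle group is described.

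There were 5 MIRI+AICAR libraries, 5 MIRI+Compound C libraries, 3 MIRI libraries and 3 Sham libraries. The labels name them by group and number and do not say whether each is 1 mouse or a pool, so the spread given below is the spread between libraries, which may be in part technical. Total back-splice counts were 178086 to 240889 in MIRI+AICAR, 140677 to 187227 in MIRI+Compound C, 124023 to 173011 in MIRI and 119948 to 163551 in Sham. No count in the table equals 1 and the smallest above 0 is 2, so a value of 0 may hide a single read. The labels call the cells cardiac muscle cells, but the tissue was heart, and circRNAs of endothelial, leukocyte and fibroblast marker genes were counted beside those of heart muscle genes in every group. In bulk tissue, fewer cells of a type and less RNA per cell cannot be told apart, and no linear RNA was measured, so a change in a circle and a change in its gene's transcription cannot be told apart either. MIRI replicate 1 and MIRI+AICAR replicate 5 stood apart in the summed circRNA level of 5 platelet-type genes (Itgb3, Trpc6 and others), at 15233 and 4405 counts per 1000000 (CPM). The other MIRI and MIRI+AICAR libraries had 1060 to 1279 CPM, and the MIRI+Compound C and Sham libraries had 770 to 995 CPM.

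The 72 circles with a count were mostly built from coding exons. Of these, 69 are listed as exonic, 64 had both ends on exon boundaries of 1 transcript of the mouse GRCm38 annotation, and 52 held coding sequence alone. Their median spliced length was 508 bases, against 526 bases over all exonic circRNAs with a count. Ddx60 had 18 circles with a count, of which novel_circ_061744 took 92.3% of the gene's 2300 counts. Trim30a and Zc3hav1 were as uneven, with 95.5% and 94.8% of their counts in their leading circle. Samhd1 was the most divided, with 16 circles and 40.8% of 655 counts in novel_circ_037624. Herc6, Stat2 and Irf2 had 54.5%, 56.3% and 56.8% in their leading circle, and Eif2ak2 had 54.2%. Oas2 had only 1 circle.

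The sequences across the junctions of the leading circles are shown because each identifies its circle: such a run of bases is absent from the linear transcript. Each line gives the last 20 bases of the circle's final exon in lower case and then the first 20 bases of its first exon in capitals, 5′ to 3′ on the gene's strand, read from the GENCODE M21 transcripts of GRCm38.
Ddx60, novel_circ_061744: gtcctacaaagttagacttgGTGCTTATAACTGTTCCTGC
Stat2, novel_circ_008228: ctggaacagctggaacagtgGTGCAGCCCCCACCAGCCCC
Samhd1, novel_circ_037624: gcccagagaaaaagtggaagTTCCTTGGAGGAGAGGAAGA
Samhd1, novel_circ_037626: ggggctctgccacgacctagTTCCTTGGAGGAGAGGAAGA
Herc6, novel_circ_054760: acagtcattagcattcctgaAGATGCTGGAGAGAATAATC
Oas2, novel_circ_049200: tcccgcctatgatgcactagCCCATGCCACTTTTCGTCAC
Zc3hav1, novel_circ_052740: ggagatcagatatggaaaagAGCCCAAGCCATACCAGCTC
Eif2ak2, novel_circ_027846: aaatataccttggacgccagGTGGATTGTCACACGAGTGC
The 2 Samhd1 lines share their capitals: both circles start at the same exon and differ in the exon that is joined back to it.

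The Ddx60 circle lies at chr8:61979257-61983943 on the plus strand of GRCm38 and joins exon 22 back to exon 20 of 39, a coding circle of 355 bases. The Stat2 circle lies at chr10:128277644-128278817 on the plus strand and joins exon 8 back to exon 5 of 24, with 404 coding bases. Stat2's next circle, novel_circ_008227, ends at the same exon 8 but starts at exon 2. The Samhd1 circle lies at chr2:157120482-157126844 on the minus strand and holds exons 3 to 6 of 16, with 421 coding bases. The Herc6 circle holds exons 11 to 12 of 23 at chr6:57618613-57619634, plus strand. The Irf2 circle holds exons 2 to 6 of 9 at chr8:46793493-46818908, plus strand. The Oas2 circle holds exons 6 to 7 of 12 at chr5:120738295-120738843, minus strand. The Zc3hav1 circle spans exons 8 to 12 of 13 at chr6:38311178-38319824, minus strand, and its listed length of 1229 bases exceeds the 580 bases of those exons. The Eif2ak2 circle spans exons 4 to 9 of 16 at chr17:78868757-78874079, minus strand. The leading Trim30a circle, at chr7:104429121-104436042 on the minus strand, matched no exon pair of 1 transcript, and Trim30a has near-identical neighbours among the Trim30 genes, so its counts are uncertain.

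**Figure D1:**
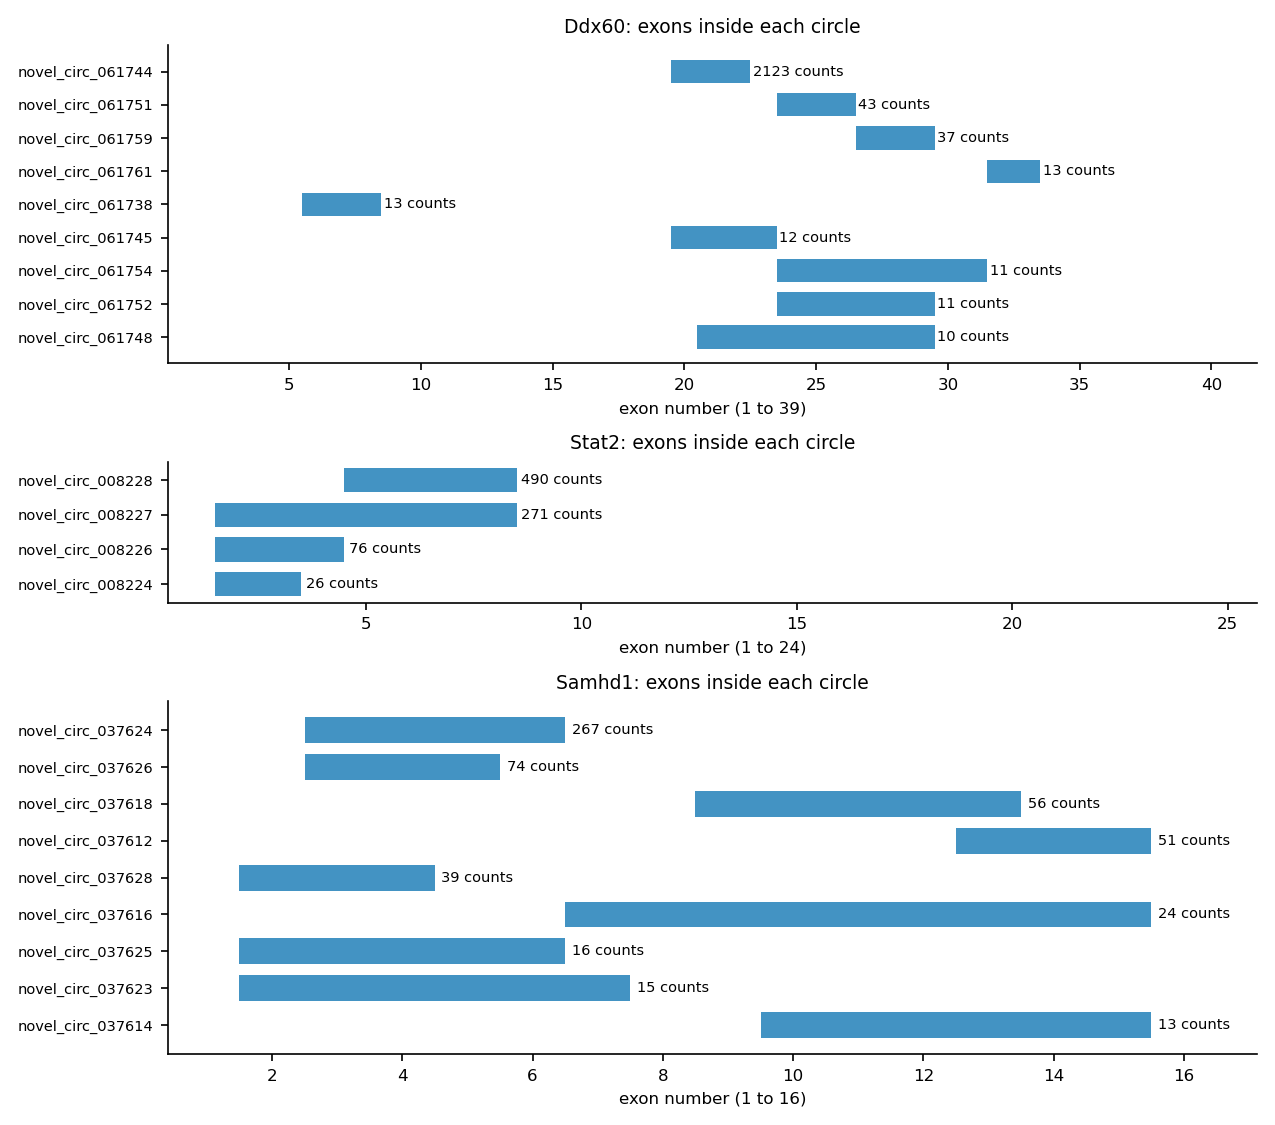
Exons held by each exon-matched circle of Ddx60, Stat2 and Samhd1 with at least 10 counts over the 16 libraries; the x axis is the exon number and each bar runs from the first to the last exon of a circle, with its total count at the right. One Ddx60 circle over exons 20 to 22 holds 2123 counts, the main Stat2 circles share the end of exon 8, and the Samhd1 counts are spread over circles in several parts of the gene.

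Ddx60 encodes a helicase-like protein that is known to support RIG-I-type sensing of viral RNA. Its leading circle had 367.5, 327.3, 385.8, 419.5 and 479.5 CPM in the 5 MIRI+AICAR libraries. It had 853.9, 1767, 896.4, 1093 and 1775 CPM in the 5 MIRI+Compound C libraries. It had 218.8, 363.9 and 415.9 CPM in the 3 MIRI libraries, and 1189, 1947 and 1790 CPM in the 3 Sham libraries. All 8 libraries of the MIRI+AICAR and MIRI groups thus lay below all 8 of the MIRI+Compound C and Sham groups, and within each of those pairs of groups the ranges overlapped. The share of all circles, host genes or gene lists with this split was not counted, so here and below the split is a description.

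The log2 fold change of this Ddx60 circle was -2.31 (SE 0.27) for MIRI against Sham, with group means of 332.9 ± 102 and 1642 ± 400 CPM (SD, n = 3 each). It was 1.94 (SE 0.25) for MIRI+Compound C against MIRI, with a mean of 1277 ± 460 CPM in MIRI+Compound C (SD, n = 5). For MIRI+AICAR against MIRI it was 0.26 (SE 0.26), with a mean of 395.9 ± 57.4 CPM in MIRI+AICAR (SD, n = 5). MIRI+AICAR against MIRI+Compound C gave -1.69 (SE 0.20), MIRI+AICAR against Sham gave -2.05 (SE 0.22) and MIRI+Compound C against Sham gave -0.37 (SE 0.22). These comparisons share their libraries and are not independent of each other. Raw counts show the same order: 52 to 87 in MIRI+AICAR, 114 to 284 in MIRI+Compound C, 30 to 57 in MIRI and 135 to 267 in Sham.

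The other 17 Ddx60 circles with a count were far rarer, and their pooled counts followed the same order of groups. Per 100000 back-splice counts they had 4.51 in MIRI+AICAR, 9.33 in MIRI+Compound C, 1.98 in MIRI and 9.88 in Sham. These rest on 46, 79, 9 and 43 counts in that order of groups. Per library the counts were 4 to 16, 9 to 24, 0 to 7 and 12 to 19, so MIRI+AICAR overlapped every other group. The second circle, novel_circ_061751 over exons 24 to 26, had at most 19.3 CPM in MIRI+AICAR and 43.8 CPM in MIRI+Compound C. It had 0, 0 and 17.3 CPM in MIRI, and 26.4, 21.9 and 40.5 CPM in Sham. At such counts the Ddx60 sum is set almost wholly by the circle over exons 20 to 22.

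**Figure D2:**
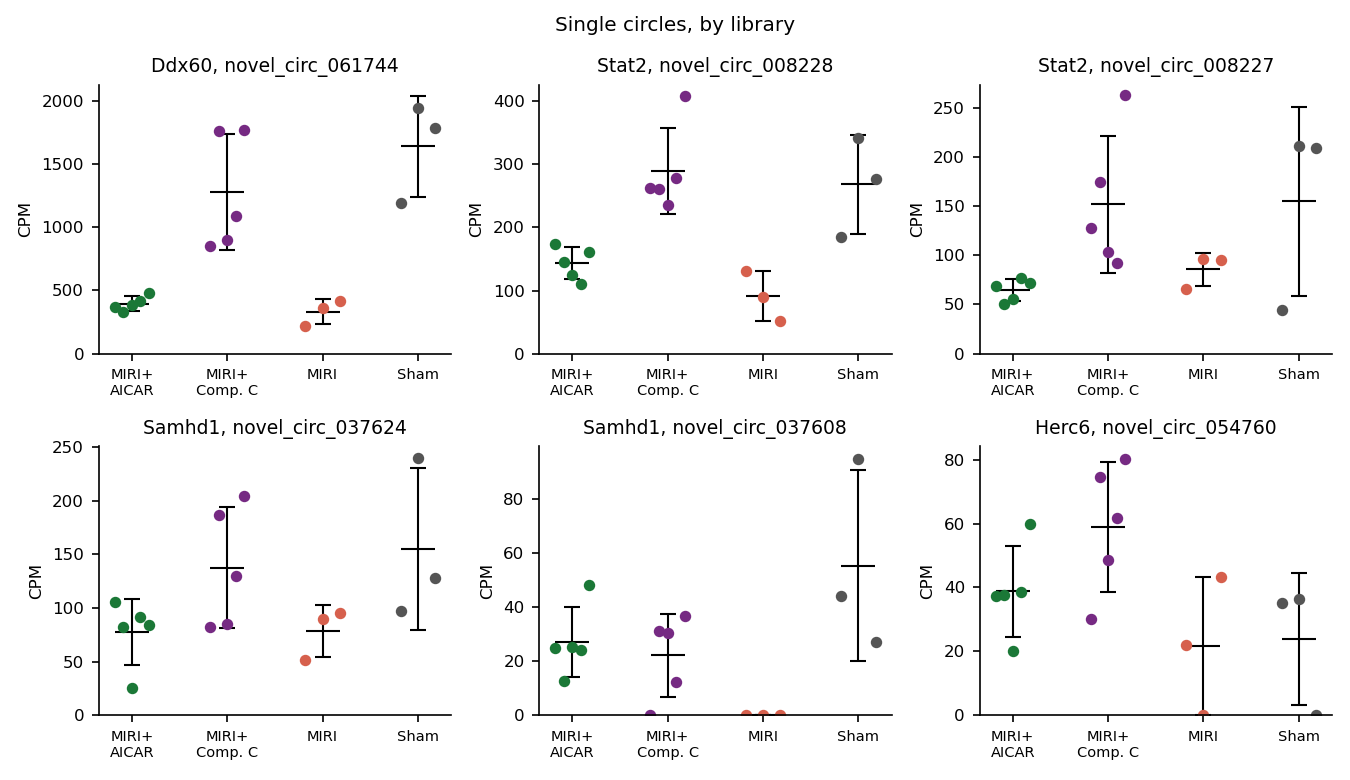
CPM of 6 single circles in each library; points are libraries, horizontal marks are group means and bars are 1 SD, cut off at 0 (MIRI+AICAR and MIRI+Compound C n = 5, MIRI and Sham n = 3). The Ddx60 circle was at or below 479.5 CPM in every MIRI+AICAR and MIRI library and at or above 853.9 CPM in every MIRI+Compound C and Sham library, and novel_circ_037608 of Samhd1 was at 0 in all 3 MIRI libraries.

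Of the other 3 genes that act on foreign RNA, Zc3hav1 did not share that order, and Eif2ak2 and Oas2 had too few counts to tell. Zc3hav1 encodes the zinc-finger antiviral protein, which binds CpG-rich viral RNA and recruits its decay. Summed over circles it averaged 115.1 ± 24.2 CPM in MIRI+AICAR and 127.2 ± 15.9 CPM in MIRI+Compound C (SD, n = 5 each), against 106.4 ± 16.1 CPM in MIRI and 95.95 ± 39.6 CPM in Sham (SD, n = 3 each). Its 6 log2 fold changes ran from -0.13 (SE 0.24) to 0.36 (SE 0.30), and its ranges overlapped in every comparison.

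Eif2ak2 encodes the kinase PKR, which halts translation when double-stranded RNA is bound. Its 5 circles with a count had 48 counts in all. The sum ranged from 0 to 46.5 CPM in MIRI+AICAR, 0 to 48.2 CPM in MIRI+Compound C, 0 to 13.5 CPM in MIRI and 0 to 20.4 CPM in Sham, so every group had a library at 0. Oas2 makes the short adenosine chains that activate RNase L. Its only circle had 50 counts in all and ranged from 0 to 37.6 CPM in MIRI+AICAR, 0 to 48.2 CPM in MIRI+Compound C, 0 to 20.3 CPM in MIRI and 0 to 34.0 CPM in Sham. Standard errors of their log2 fold changes were between 0.90 and 1.53, so a difference of the size seen for Stat2 was not detectable at this depth.

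Stat2 encodes the transcription factor that carries the interferon signal to the nucleus together with Irf9. Summed over its 5 circles with a count, it had 281.6, 209.2, 198.1, 168.0 and 236.1 CPM in MIRI+AICAR. It had 445.0, 448.5, 365.4, 404.6 and 681.8 CPM in MIRI+Compound C. It had 203.0, 197.6 and 167.9 CPM in MIRI, and 300.6, 557.7 and 522.8 CPM in Sham. As for Ddx60, all MIRI+AICAR and MIRI libraries lay below all MIRI+Compound C and Sham libraries. The log2 fold change was -1.28 (SE 0.26) for MIRI against Sham and 1.29 (SE 0.24) for MIRI+Compound C against MIRI. It was 0.19 (SE 0.25) for MIRI+AICAR against MIRI, -1.10 (SE 0.19) for MIRI+AICAR against MIRI+Compound C, -1.10 (SE 0.22) for MIRI+AICAR against Sham and 0.01 (SE 0.21) for MIRI+Compound C against Sham.

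The main Stat2 circles, whose shared end at exon 8 is the lower-case part of the Stat2 junction above, did not split the groups equally cleanly. The circle over exons 5 to 8 averaged 143.4 ± 25.9 CPM in MIRI+AICAR and 289.3 ± 68.6 CPM in MIRI+Compound C (SD, n = 5 each), against 90.89 ± 39.7 CPM in MIRI and 268.2 ± 79.2 CPM in Sham (SD, n = 3 each). Its ranges in MIRI+AICAR and MIRI again lay below those in MIRI+Compound C and Sham. The circle over exons 2 to 8 averaged 64.6 ± 11.4 CPM in MIRI+AICAR, 152.0 ± 69.5 CPM in MIRI+Compound C, 85.6 ± 17.3 CPM in MIRI and 155.0 ± 96.1 CPM in Sham. Sham replicate 1, at 44.1 CPM, was lower than every other library in this circle, so that Sham overlapped all other groups. The circle over exons 2 to 4, novel_circ_008226, averaged 25.1 ± 25.6 CPM in MIRI+AICAR, 37.4 ± 18.9 CPM in MIRI+Compound C, 20.2 ± 6.77 CPM in MIRI and 45.4 ± 14.03 CPM in Sham.

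Irf2 encodes a factor that binds the same promoter elements as Irf1 and mostly opposes it. Its sum averaged 68.2 ± 11.8 CPM in MIRI+AICAR and 84.2 ± 24.1 CPM in MIRI+Compound C (SD, n = 5 each), against 48.2 ± 18.6 CPM in MIRI and 74.7 ± 30.2 CPM in Sham (SD, n = 3 each). The log2 fold change was -0.68 (SE 0.45) for MIRI against Sham and 0.85 (SE 0.40) for MIRI+Compound C against MIRI, and the groups overlapped in every comparison. Its leading circle over exons 2 to 6 averaged 38.5 ± 10.04, 55.4 ± 27.9, 37.2 ± 5.74 and 36.9 ± 9.21 CPM in MIRI+AICAR, MIRI+Compound C, MIRI and Sham, in that order. The rarer Irf2 circles had 3.23, 3.19, 1.10 and 3.90 counts per 100000 in the same groups, and were lowest in MIRI, where the leading circle was not. These rest on few reads, with 5 counts over the MIRI libraries, at 0 to 3 each, and 17 over the Sham libraries.

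**Figure D3:**
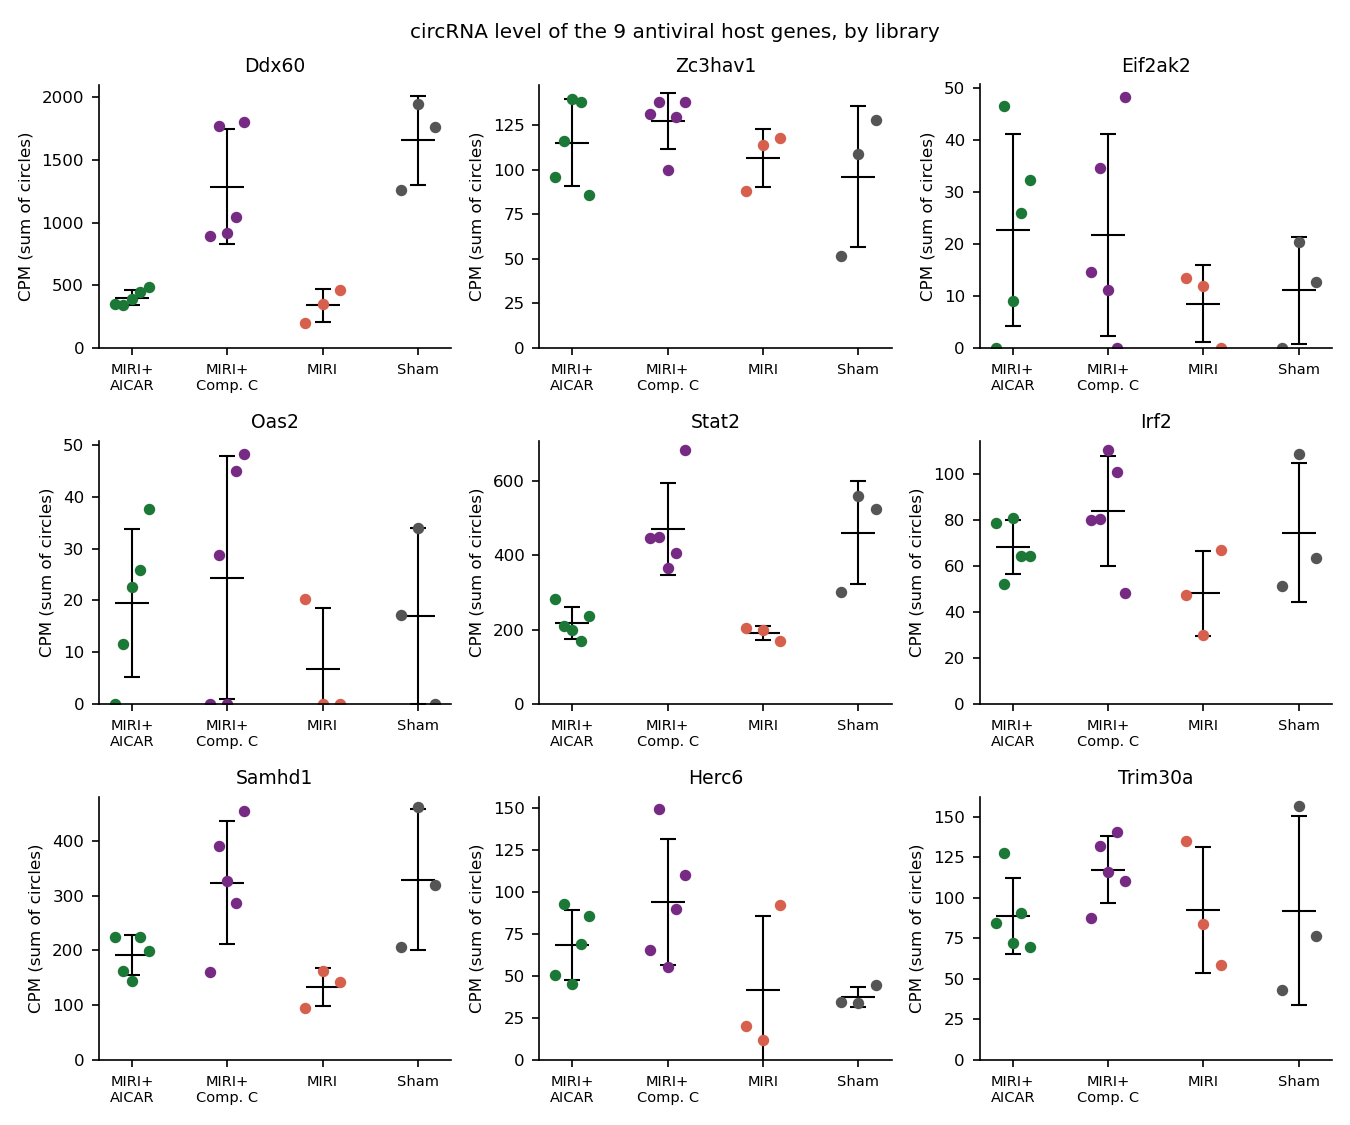
CPM of all circles of each of the 9 host genes, summed, in each library; points are libraries, horizontal marks are group means and bars are 1 SD, cut off at 0 (MIRI+AICAR and MIRI+Compound C n = 5, MIRI and Sham n = 3). Ddx60 and Stat2 separate the MIRI+AICAR and MIRI libraries from the MIRI+Compound C and Sham libraries without overlap, and the other 7 genes do not.

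Samhd1 encodes an enzyme that breaks down the building blocks of DNA and so starves viral reverse transcription. Its sum was 225.3, 162.7, 144.1, 224.0 and 198.5 CPM in MIRI+AICAR and 160.5, 391.0, 326.7, 286.6 and 454.5 CPM in MIRI+Compound C. It was 94.7, 161.7 and 142.7 CPM in MIRI, and 206.1, 462.5 and 318.8 CPM in Sham. The MIRI libraries lay below the Sham libraries, whereas MIRI+Compound C replicate 1 lay within the MIRI range. The log2 fold change was -1.31 (SE 0.33) for MIRI against Sham, 1.28 (SE 0.30) for MIRI+Compound C against MIRI, 0.52 (SE 0.31) for MIRI+AICAR against MIRI and -0.77 (SE 0.23) for MIRI+AICAR against MIRI+Compound C. The order of the group means was thus the one seen for Ddx60, with MIRI+AICAR and MIRI below the other groups.

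Single Samhd1 circles gave different pictures. The leading circle over exons 3 to 6 averaged 77.7 ± 30.9 CPM in MIRI+AICAR, 137.6 ± 56.5 CPM in MIRI+Compound C, 78.6 ± 24.0 CPM in MIRI and 155.3 ± 75.5 CPM in Sham. The circle novel_circ_037608, at chr2:157099385-157107565 with no exon match, had 24 counts over the MIRI+AICAR libraries and 17 over the MIRI+Compound C libraries, against 0 in all 3 MIRI libraries and 22 over the Sham libraries. With a floor of 3 counts put in for the MIRI group, this circle was 7.53-fold lower in MIRI than in Sham. On the same footing it was 3.06-fold higher in MIRI+Compound C than in MIRI and 3.66-fold higher in MIRI+AICAR than in MIRI. These are not strict lower limits: a 0 may hide a single read, and the counts of the other group are taken as exact. This circle was not called in any comparison. The other circles that passed the filter, novel_circ_037626 and novel_circ_037618, overlapped between all groups.

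Herc6 is, in the mouse, the main ligase that attaches Isg15 to proteins. Its sum was 50.7, 93.0, 45.0, 68.9 and 85.8 CPM in MIRI+AICAR and 65.7, 149.5, 55.4, 89.9 and 110.2 CPM in MIRI+Compound C. It was 20.3, 12.0 and 92.4 CPM in MIRI and 34.4, 34.0 and 44.6 CPM in Sham. Every MIRI+AICAR and MIRI+Compound C library lay above every Sham library, with log2 fold changes of 0.83 (SE 0.51) and 1.30 (SE 0.50), and 4.87% of all host genes had groups without overlap for MIRI+Compound C against Sham and 10.8% for MIRI+AICAR against Sham. The MIRI libraries lay on both sides of the Sham range. For MIRI+Compound C against MIRI the log2 fold change was 1.28 (SE 0.50), and without MIRI replicate 3 it was 2.51 and was called. The Herc6 means in MIRI+AICAR and MIRI+Compound C were thus above the Sham mean. Those of Ddx60, Stat2 and Samhd1 were at about the Sham level in MIRI+Compound C and below it in MIRI+AICAR. Herc6 was not called against Sham and rests on few reads. Its leading circle had 9 counts over the Sham libraries and 8 over the MIRI libraries, and its other circles had 7 and 8. Trim30a, which in the mouse restrains Toll-like receptor signalling, averaged 88.9 ± 23.4 CPM in MIRI+AICAR, 117.3 ± 20.6 CPM in MIRI+Compound C, 92.6 ± 39.0 CPM in MIRI and 91.96 ± 58.3 CPM in Sham, and the ranges of all 4 groups overlapped.

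The 9 sums were then read against all 3699 host genes that passed the filter on low counts, in a single edgeR quasi-likelihood fit. A gene was called where its p, adjusted over all of them by the Benjamini-Hochberg method, was under 0.05. All 9 sums passed the filter, whereas only 15 of the 72 circles did, from every gene but Eif2ak2. For MIRI against Sham, Ddx60 and Stat2 were called lower, or 2 of 9 sums, where 0.0811% of all host genes were called lower. For MIRI+Compound C against MIRI, Ddx60, Stat2 and Samhd1 were called higher, where 0.162% of host genes were. None of the 9 was called for MIRI+AICAR against MIRI, where 0.0270% of host genes were called in either direction. Ddx60 and Stat2 were called lower for MIRI+AICAR against MIRI+Compound C, where 1.03% of host genes were. Ddx60 and Stat2 were also called lower for MIRI+AICAR against Sham, where 0.811% of host genes were, and none of the 9 for MIRI+Compound C against Sham, where 0.0270% were called in either direction. In the comparisons with no member called, 0 and 1 of the 9 had an unadjusted p under 0.05, beside 6.76% and 6.38% of all host genes. DESeq2 called 0 of the 9 in both. As the 9 genes were chosen with such results known, nothing is read from these shares. The Stat2 call for MIRI against Sham was lost without Sham replicate 2 or Sham replicate 3, and that for MIRI+AICAR against Sham without Sham replicate 2. The Samhd1 call for MIRI+Compound C against MIRI was lost when either MIRI replicate 1 or any 1 of MIRI+Compound C replicates 2 to 5 was left out, and it was made for MIRI+AICAR against MIRI+Compound C without MIRI+Compound C replicate 1.

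Among single circles 7917 were tested. For MIRI against Sham 1 member circle was called, that of Ddx60, which was lower, where 0.0126% of all circles were called lower. The Ddx60 circle and the Stat2 circle over exons 5 to 8 were called higher for MIRI+Compound C against MIRI, where 0.0505% of circles were, and lower for MIRI+AICAR against MIRI+Compound C, where 0.303% were. The Ddx60 circle alone was called, lower, for MIRI+AICAR against Sham, where 0.227% of circles were called lower. No member circle was called for MIRI+AICAR against MIRI, where 0.0253% of circles were called in either direction, or for MIRI+Compound C against Sham, where 0 of 7917 circles were called. At an unadjusted p under 0.05 the counts of member circles were 1 and 0 of 15, beside 388 and 409 of all 7917 circles. DESeq2 called 0 member circles in both. The Stat2 circle lost its call for MIRI+Compound C against MIRI when either MIRI replicate 3 or MIRI+Compound C replicate 5 was left out. In MIRI+AICAR against MIRI+Compound C it lost its call without any 1 of MIRI+Compound C replicates 1, 4 and 5 and MIRI+AICAR replicates 2, 3, 4 and 5.

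The signs of the 9 log2 fold changes were counted in each comparison. For MIRI against Sham 7 of 9 log2 fold changes were below 0, with a median of -0.68 against 0.02 over all host genes. Of those 7, Trim30a was at 0.00 (SE 0.40) and changed sign in 5 of 13 alternatives, and Eif2ak2 was at -0.34 (SE 1.42) and did so in 2 of 11. For MIRI+Compound C against MIRI 9 of 9 were above 0, with a median of 1.28 against 0.00. In MIRI+AICAR against MIRI 8 of 9 were above 0, with a median of 0.52 against 0.02. Against MIRI+Compound C, MIRI+AICAR had 8 of 9 below 0, with a median of -0.42 against 0.02. Against Sham, MIRI+AICAR had 4 above and 5 below 0, with a median of -0.09 against 0.04, and MIRI+Compound C had 7 above and 2 below, with a median of 0.33 against 0.02. The signs were thus mixed for MIRI+AICAR against Sham, where Ddx60 and Stat2 were called lower and Herc6 was at 0.83. The groups did not overlap for Ddx60, Samhd1 and Stat2 in MIRI against Sham, where 11.9% of all host genes had groups without overlap. They did not overlap for Ddx60 and Stat2 in MIRI+Compound C against MIRI, where 5.95% did not, and in MIRI+AICAR against MIRI+Compound C, where 4.81% did not. All 9 overlapped in MIRI+AICAR against MIRI, where 4.51% of host genes did not.

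**Figure D4:**
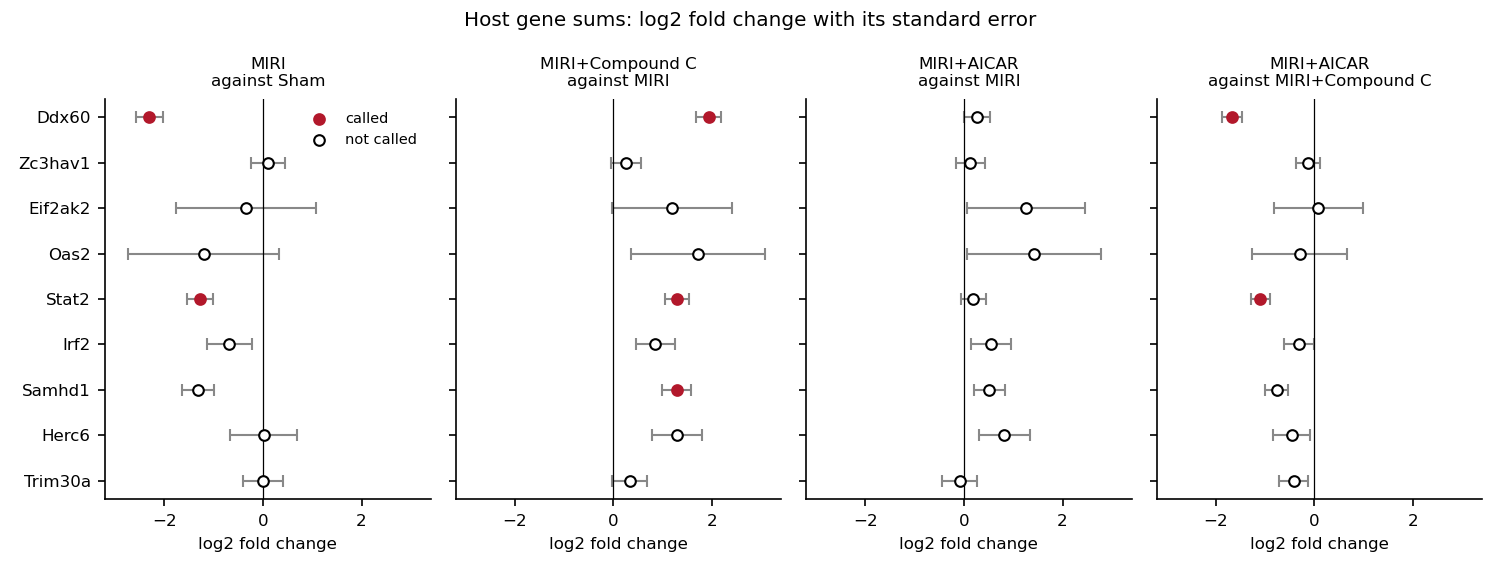
Log2 fold change of the summed circles of each host gene in 4 comparisons, with bars of 1 standard error; filled red points were called by edgeR at an adjusted p under 0.05 and open points were not. Ddx60 and Stat2 are left of 0 for MIRI against Sham, right of 0 for MIRI+Compound C against MIRI and left of 0 again for MIRI+AICAR against MIRI+Compound C, and Eif2ak2 and Oas2 have the widest bars.

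Beside the 9 genes, 116 other genes of the interferon pathway were listed, of which 71 are in the table and 19 passed the filter as host gene sums. This list was also drawn up with earlier results known. Its counts, shares and p-values below are therefore descriptions, and nothing is read from them. Of the 19, 15 were below 0 for MIRI against Sham, with a median log2 fold change of -0.68, and 16 were above 0 for MIRI+Compound C against MIRI, with a median of 0.66. In MIRI+AICAR against MIRI 10 were above 0 and 9 below, with a median of 0.04. MIRI+AICAR against MIRI+Compound C had 15 below 0, with a median of -0.63, and for MIRI+Compound C against Sham 9 were above 0 and 10 below, with a median of -0.01. None was called by edgeR for MIRI against Sham or for MIRI+Compound C against MIRI, and in each 8 of 19 had an unadjusted p under 0.05, where 9.03% and 9.00% of all host genes did. None was called for MIRI+AICAR against MIRI or MIRI+Compound C against Sham either. There 3 and 0 had an unadjusted p under 0.05, beside 6.76% and 6.38% of all host genes. For MIRI+AICAR against Sham 3 were above 0 and 16 below, with a median of -0.43. In that comparison 2 were called lower, where 0.811% of host genes were. For MIRI+AICAR against MIRI+Compound C 1 was called lower, where 1.03% of host genes were. Leaving out MIRI replicate 3 gave 4 calls for MIRI+Compound C against MIRI (Dtx3l, Gbp7, Rnf213 and Sp100) and 2 for MIRI against Sham (Dtx3l and Gbp7), and leaving out MIRI replicate 1 gave 1 for MIRI against Sham (Dtx3l). Of the best-known interferon-induced genes, Isg15, Ifit1, Mx1 and Irf7 had no circRNA count, so the list covers genes that form circles and not the pathway as a whole.

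Dtx3l, a ubiquitin ligase that works with Parp9 in the interferon response, was called lower for MIRI+AICAR against MIRI+Compound C. It averaged 584.7 ± 58.4 CPM in MIRI+AICAR and 959.2 ± 140 CPM in MIRI+Compound C (SD, n = 5 each), a log2 fold change of -0.71 (edgeR adjusted p = 0.00293). Against Sham, at 1036 ± 136 CPM (SD, n = 3), the MIRI+AICAR level of Dtx3l had a log2 fold change of -0.83 (edgeR adjusted p = 0.00252). Its mean of 609.8 ± 139 CPM in MIRI (SD, n = 3) was not called against Sham (log2 fold change -0.78, edgeR adjusted p = 0.0756). Nlrc5, the activator of antigen-presenting class I genes, averaged 4.05 ± 5.61 CPM in MIRI+AICAR (SD, n = 5), against 52.6 ± 14.9 CPM in Sham (SD, n = 3), with a log2 fold change of -3.47 (edgeR adjusted p = 0.0476). The Nlrc5 call was lost without any 1 of the 3 Sham libraries or of MIRI+AICAR replicates 2 to 5, whereas Dtx3l was called each time.

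Rnf213, a large ubiquitin ligase with antimicrobial activity, averaged 120.6 ± 15.6 CPM in MIRI+Compound C (SD, n = 5) and 36.6 ± 19.3 CPM in MIRI (SD, n = 3), with a log2 fold change of 1.76 (edgeR adjusted p = 0.0625). Sp100, a nuclear body protein, averaged 485.2 ± 91.4 CPM in MIRI+Compound C and 281.0 ± 40.7 CPM in MIRI, with a log2 fold change of 0.79 (edgeR adjusted p = 0.0656). Gbp7, a guanylate-binding protein, averaged 8.40 ± 14.5 CPM in MIRI, against 78.8 ± 62.9 CPM in Sham (SD, n = 3 each), with a log2 fold change of -3.39 (edgeR adjusted p = 0.160). Gbp4, another guanylate-binding protein, had 0 counts in all 3 MIRI libraries. With a floor of 3 counts put in for the MIRI group, Gbp4 was 6.19-fold lower in MIRI than in Sham, which is likewise not a strict lower limit.

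Summed over the 19 genes, the other interferon pathway circRNAs had 2487 to 2666 CPM in MIRI+AICAR, 2973 to 4056 CPM in MIRI+Compound C, 2301 to 2687 CPM in MIRI and 3298 to 3700 CPM in Sham. The mean sum was 3552 CPM in Sham and 2453 CPM in MIRI, and a few abundant genes weigh most in it. Dtx3l averaged 1036 and 609.8 CPM in those groups, Tdrd7 486.6 and 308.1 CPM, and Sp100 442.1 and 281.0 CPM. The sum without these genes was not computed. The 9 genes without Ddx60 summed to 792.7 ± 45.7 CPM in MIRI+AICAR and 1262 ± 262 CPM in MIRI+Compound C (SD, n = 5 each), against 626.6 ± 18.2 CPM in MIRI and 1118 ± 391 CPM in Sham (SD, n = 3 each). In both sums the means of MIRI+AICAR and MIRI were the low ones, although in the second the Sham libraries, from 704.3 to 1483 CPM, overlapped the MIRI+AICAR libraries, from 711.5 to 819.4 CPM. Stat2 and Samhd1 carried that order: the other 6 genes summed to 383.1 ± 51.7 CPM in MIRI+AICAR and 468.9 ± 79.4 CPM in MIRI+Compound C (SD, n = 5 each), against 304.1 ± 45.8 CPM in MIRI and 328.4 ± 133 CPM in Sham (SD, n = 3 each), with MIRI+AICAR above Sham in the mean.

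Sums of marker genes of cell types were set beside this order of the groups, and their part in the result was not tested. The 14 of 26 leukocyte markers that passed the filter summed to 3748 to 4791 CPM in MIRI+AICAR, 3122 to 3621 CPM in MIRI+Compound C, 3425 to 3999 CPM in MIRI and 2199 to 3095 CPM in Sham, and 11 or 12 of the 26 were at 0 in all libraries of a group, among them Csf1r, Cd68, Lyz2 and Cx3cr1 in every group. The leukocyte sum was thus lowest in Sham, where Ddx60 and Stat2 were high. The 10 of 17 endothelial markers summed to 2801 to 3486 CPM in MIRI+AICAR, 3726 to 5311 CPM in MIRI+Compound C, 3262 to 3635 CPM in MIRI and 3169 to 4310 CPM in Sham, and 2 to 5 of the 17 were at 0 in all libraries of a group, Eng and Erg in every group. The endothelial sum was higher in MIRI+Compound C than in MIRI+AICAR and in MIRI without overlap, as Ddx60 and Stat2 were, and its means were lowest in MIRI+AICAR and MIRI, at 3203 and 3463 CPM, against 4157 CPM in MIRI+Compound C and 3636 CPM in Sham. The Sham range of this sum overlapped those of all other groups. The 11 of 17 heart muscle markers averaged 33405 ± 4408 CPM in MIRI+AICAR, 35350 ± 6170 CPM in MIRI+Compound C, 30039 ± 5543 CPM in MIRI and 31504 ± 3482 CPM in Sham. The 6 of 11 fibroblast markers averaged 1091 ± 89.3 CPM, 844.2 ± 94.7 CPM, 1271 ± 463 CPM and 795.1 ± 69.7 CPM in the same order of groups, and 3 to 7 of the 11 were at 0 in all libraries of a group, Postn, Tcf21 and Fap in every group. The fibroblast means were thus high where those of Ddx60 and Stat2 were low. Each MIRI+AICAR library, from 977.2 CPM, was above each MIRI+Compound C library, up to 938.3 CPM, and each Sham library, up to 870.6 CPM, and the MIRI libraries, from 910.2 CPM, were above Sham and overlapped MIRI+Compound C. The 5 of 11 platelet-type genes summed to 1138 to 4405 CPM in MIRI+AICAR and 1060 to 15233 CPM in MIRI. They summed to 769.6 to 994.5 CPM in MIRI+Compound C and 773.0 to 911.4 CPM in Sham. Every MIRI+AICAR and MIRI library was thus above every MIRI+Compound C and Sham library, the reverse of Ddx60 and Stat2.

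**Figure D5:**
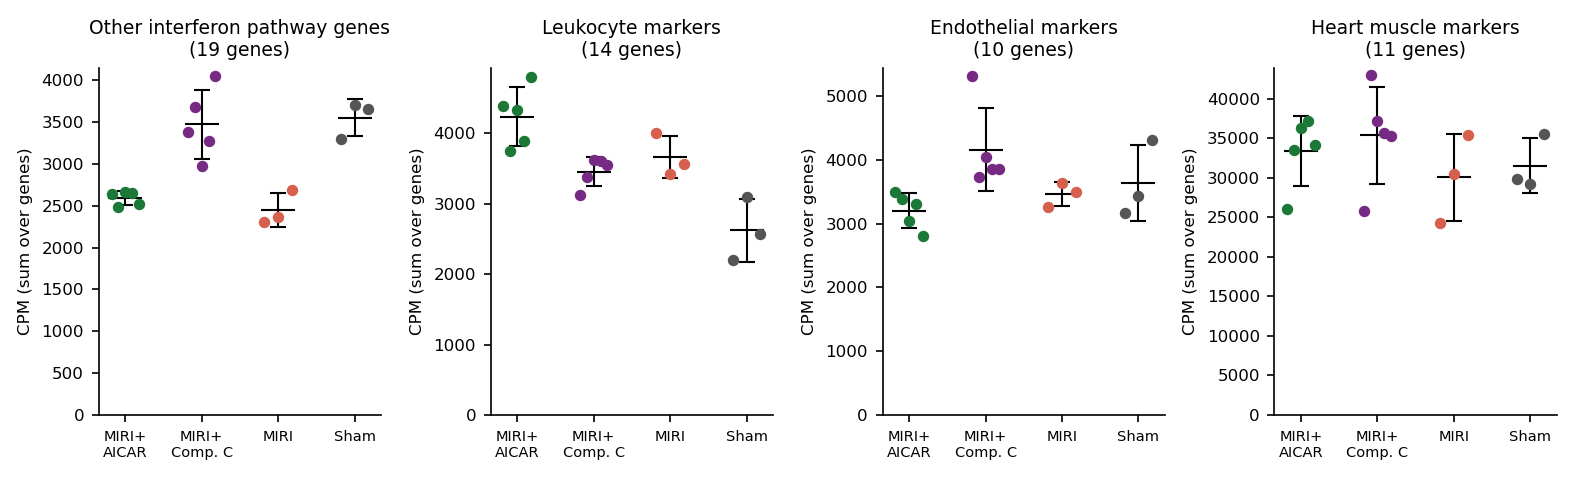
Summed CPM of 4 lists of host genes in each library; points are libraries, horizontal marks are group means and bars are 1 SD (MIRI+AICAR and MIRI+Compound C n = 5, MIRI and Sham n = 3). The sum of the 19 other interferon pathway genes is at or below 2687 CPM in all MIRI+AICAR and MIRI libraries and at or above 2973 CPM in all MIRI+Compound C and Sham libraries, whereas the leukocyte sum is lowest in Sham and the endothelial sum is highest in MIRI+Compound C.

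Across the 16 libraries, the host genes outside the 9 whose log2 CPM moved most closely with Ddx60 were Nlrc5 (Pearson r = 0.90, Spearman rho = 0.82), Tdrd7 (r = 0.88, rho = 0.86), Wars (r = 0.88, rho = 0.83), Fhl2 (r = 0.87, rho = 0.78) and Rnf114 (r = 0.86, rho = 0.75). Of the 9, Stat2 (r = 0.88) and Samhd1 (r = 0.86) were ranked among them, and the other 6 had r between 0.12 and 0.38. The libraries fall into groups that differ in Ddx60, so these values mostly restate the group means. Within groups r was 0.33 for Nlrc5, 0.73 for Tdrd7, 0.53 for Wars, 0.61 for Fhl2, 0.14 for Rnf114, 0.37 for Stat2 and 0.74 for Samhd1. For the other 6 members the within-group r was 0.62 for Herc6, 0.48 for Zc3hav1, 0.38 for Eif2ak2, 0.28 for Oas2, -0.06 for Trim30a and -0.09 for Irf2. Herc6, Zc3hav1 and Eif2ak2 were thus above Stat2 within groups. All are given as descriptions of 16 libraries that share their scaling.

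Of those close in pattern, Fhl2, a LIM-domain protein of heart muscle, averaged 2391 ± 178 CPM in MIRI+AICAR and 4065 ± 397 CPM in MIRI+Compound C (SD, n = 5 each), with a log2 fold change of -0.76. It averaged 3010 ± 825 CPM in MIRI and 4373 ± 601 CPM in Sham (SD, n = 3 each). Wars, a tryptophan-tRNA ligase gene known to be induced by interferon gamma, averaged 11.9 ± 10.2 CPM in MIRI+AICAR, 95.5 ± 48.4 CPM in MIRI+Compound C, 19.7 ± 12.1 CPM in MIRI and 90.9 ± 39.9 CPM in Sham. Its log2 fold change was -3.00 for MIRI+AICAR against MIRI+Compound C. Both genes were chosen for their likeness to Ddx60, so their differences between groups are descriptions too.

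The promoters of the 9 genes were searched for the interferon-stimulated response element in the form of GAAA, any 2 bases and GAAA again, on either strand, over the 250 bases before each start, in the RefSeq promoter table of GRCm38.p6. It holds promoters of 8 of the 9 genes, and the Oas2 promoter was not used here. The motif was found for Ddx60, Stat2, Irf2 and Trim30a, or 4 of 9 promoters, and not for Samhd1, Herc6, Eif2ak2 and Zc3hav1. Over all 32817 promoters given there, 2.97% held it, and of the 112 promoters of the other listed interferon pathway genes 25.9% did. The last 100 bases before the Ddx60 start, at chr8:61927987-61928086 on the plus strand, are printed because the motif (capitals) occurs in them a first time ending 44 bases and again ending 10 bases before the start, with the same 10 letters.
Ddx60: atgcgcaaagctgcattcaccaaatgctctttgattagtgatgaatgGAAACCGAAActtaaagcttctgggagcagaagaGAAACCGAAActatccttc
The single matches of Stat2 at chr10:128270261-128270300 and Trim30a at chr7:104465205-104465244 read as the reverse complement on the gene's strand, and that of Irf2 at chr8:46739495-46739528 reads forward.
Stat2: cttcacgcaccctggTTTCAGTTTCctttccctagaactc
Trim30a: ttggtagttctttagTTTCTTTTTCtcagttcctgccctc
Irf2: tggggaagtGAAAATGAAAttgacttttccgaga
Trim30a holds it in 1 of its 2 promoters. A match is a run of letters and not a measured binding site. Ddx60 and Stat2, which were called, hold the motif in this window, as do Irf2 and Trim30a, which were not called in any comparison, whereas Samhd1, which was called for MIRI+Compound C against MIRI, does not.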

How the data were processed

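RNA was depleted of ribosomal RNA, digested with RNase R to remove linear RNA and made into stranded libraries, per the labels' protocols. The authors deposited raw back-splice counts per circRNA, from CIRI per the file headers. The submitters' processing notes name the build mm9, but 96.5% of the starts and 96.3% of the ends of exonic circRNAs with a count lie on exon boundaries of GRCm38 (GENCODE M21), which was used for coordinates. No aligner is named in the labels.

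Members and gene lists were chosen with earlier results of these data known. Counts were also summed per host gene symbol. One edgeR 4.0.16 quasi-likelihood fit (R 4.3.3) of the 4 groups and 16 libraries was made with TMM scaling and filterByExpr (minimum count 5, minimum total 15), for 7917 circRNAs and 3699 host genes, with 6 contrasts and Benjamini-Hochberg adjustment over all features. CPM use the TMM-scaled total of the tested features, so values of circles and of host gene sums have different denominators. Depth was 119948 to 240889 counts per library, and SDs are the spread between libraries, whereas floors of 3 counts cover counting error only. On simulated counts for MIRI against Sham, 200 circRNAs (among 6995 features) and 200 host genes (among 3471) were changed by 2 on the log2 scale. Of these, 90% and 96% were recovered. All had mean counts of at least 10, and every feature was given the same spread. Recovery of rarer features, or of those with a wider spread, was not measured. Replicate pairs differed by more than sampling noise (26 pairs, chi-square per degree of freedom 1.71 to 4.65). The named genes are all 9 members, their called and leading circles, the called genes of the interferon list and the 3 with the smallest p in 2 comparisons, and the 5 genes most like Ddx60; novel_circ_037608 and the other single circles described were chosen after their values were seen. Alternatives were RLE scaling, DESeq2 1.42.0, no filter, a minimum count of 10, a replicate block, 2-group fits and leaving out libraries.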

Additional observations from a re-analysis of the deposited data

Results flagged for a closer look

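In 56 groups of 5 libraries, a library was sought whose gap to its nearest neighbour took up an unusual share of the group's range, by Dixon's criterion. For normally distributed values chance gives about 1 such group in 20, and 7 were found. A gene's sum and its leading circle were searched separately though they share counts. The groups are therefore not independent, and the 7 are not weighed against that rate. MIRI+Compound C replicate 5 was high in the Stat2 sum, at 681.8 CPM against 365.4 to 448.5 CPM in the others of its group, and in the Stat2 circle novel_circ_008228, at 409.0 CPM against 236.2 to 277.8 CPM. MIRI+Compound C replicate 3 was low in the Zc3hav1 sum, at 99.7 CPM against 129.2 to 138.0 CPM, and in the Zc3hav1 circle novel_circ_052740, at 90.9 CPM against 134.8 to 146.1 CPM. The same library was high in the Irf2 circle novel_circ_061656, at 103.0 CPM, with 51.1 CPM the next highest and 30.0 CPM the lowest. MIRI+Compound C replicate 1 was high in the summed endothelial markers, at 5311 CPM against 3726 to 4042 CPM, and its Samhd1 sum was the lowest of its group. MIRI+AICAR replicate 5 was high in the summed platelet-type genes, at 4405 CPM against 1138 to 1279 CPM. The MIRI and Sham groups, with 3 libraries each, were not searched in this way.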

How the results depend on the processing

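No log2 fold change that was called changed sign under the alternatives run. Of 102 recomputed, 34 uncalled ones, none over 0.54 in size, changed sign under at least 1: for MIRI+AICAR against MIRI the Ddx60 circle was at -0.01 without MIRI replicate 1 and MIRI+AICAR replicate 5 together, and for MIRI against Sham the Herc6 sum ranged from -1.22 to 0.49. The Ddx60 circle and sum were called in all of them for MIRI against Sham (13), MIRI+Compound C against MIRI (15), MIRI+AICAR against MIRI+Compound C (17) and MIRI+AICAR against Sham (15). Counts of calls that moved, with the cause not tested, were as follows. Member circles called for MIRI against Sham numbered 2 with DESeq2, 3 with no filter and 2 without MIRI replicate 1 and MIRI+AICAR replicate 5 together, against 1. For MIRI+Compound C against MIRI they numbered 1, against 2, when only the 2 groups were fitted. For MIRI+AICAR against MIRI+Compound C they numbered 1 with no filter and 3 with DESeq2 or only the 2 groups, and for MIRI+AICAR against Sham 2 with DESeq2. Member host genes for MIRI against Sham numbered 1 without those libraries together, 1 with only the 2 groups, and 3, with Samhd1 added, with DESeq2 or no filter. No filter also gave 3 in place of 2 for MIRI+AICAR against MIRI+Compound C, as only the 2 groups did, and for MIRI+AICAR against Sham, and for MIRI+Compound C against MIRI there were 2 in place of 3 without those libraries or with only the 2 groups. Of the other interferon genes, no filter gave 3 calls for MIRI against Sham, 4 for MIRI+Compound C against MIRI and 3 for MIRI+AICAR against MIRI+Compound C, and a minimum count of 10 gave 2 for the last and 1 for MIRI+AICAR against Sham. Leaving out 1 library gave 1 to 2 member circles for MIRI against Sham, MIRI+Compound C against MIRI, MIRI+AICAR against MIRI+Compound C and MIRI+AICAR against Sham, and 0 for the rest. It gave 1 to 2 member host genes for MIRI against Sham and MIRI+AICAR against Sham, 2 to 4 for MIRI+Compound C against MIRI and 2 to 3 for MIRI+AICAR against MIRI+Compound C. For the other interferon genes it gave 0 to 2 for MIRI against Sham, 0 to 4 for MIRI+Compound C against MIRI, and 1 to 2 for MIRI+AICAR against MIRI+Compound C and MIRI+AICAR against Sham. The replicate numbers did not pair the libraries: in 20 same-numbered pairs r ran from -0.02 to 0.08, with 0 over 0.1. With the replicate block, 1 member circle was called for MIRI+Compound C against MIRI in place of 2, and 2 member host genes in place of 3. Depth limits the rarer genes most: Eif2ak2 and Oas2 had 48 and 50 counts over 16 libraries.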
